A study of Zea mays with 12 samples.

Results

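Chromosome 9 of the maize inbred B73 was described here by its replication timing map in root tip cells. The map of chromosome 9 consists of every segment that the deposited genome segmentation places on that chromosome, 1530 of 20613 segments in all, or 7.42%. These segments carry a timing class over 159.565 Mb (megabases) of the 163.005 Mb up to the end of the last segment.

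The data come from Repli-seq, in which DNA made during a short pulse of a thymidine analogue is isolated from cells sorted by their stage of S phase and sequenced. All plants were B73 seedlings grown for 3 days at 28 C, given 25 µM of the analogue EdU for 20 min and then 100 µM thymidine, and nuclei came from the terminal 1 mm of the root tip. Flow sorting gave 4 groups of 3 libraries each, early S, mid S, late S and G1, 12 libraries in all. EdU-bearing DNA was immunoprecipitated in the S-phase groups, whereas the G1 group, the unreplicated reference, was sequenced without immunoprecipitation. The pool of cells is the mixed population of a root tip, and no expression data were at hand to check the tissue against marker genes.

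ES, MS and LS stand for early, mid and late replication, as the group names were read, and ESMS and MSLS for the mixed classes of neighbouring stages. Only 1 segmentation for the whole genome was available, in windows of 10 kb and without values for single libraries. The depth behind each segment is therefore unknown, no error between replicate libraries can be given, and the SDs below are over the other 9 chromosomes of the same genome, which do not stand for replicate plants. Positions follow the deposited file. The sources used here do not name its genome build. Genes were placed by the midpoint of their interval in the RefSeq gene table.

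Replication of a plant chromosome starts at many sites and, averaged over many cells, proceeds in a characteristic order during S phase. Gene-rich open chromatin is generally copied early, and repeat-rich heterochromatin, such as that around centromeres and in the knobs of maize, is generally copied later. Neighbouring origins that fire together form timing domains, and the sequence between an early and a late domain is copied at intermediate times by forks that travel from one to the other.

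MS was the largest class of chromosome 9 as a whole, with 50.26 Mb, followed by ES with 42.71 Mb and LS with 33.46 Mb. The mixed classes were smaller, MSLS covering 18.19 Mb and ESMS 14.87 Mb. As a share of classified sequence, ES came to 26.8% on chromosome 9, against 27.7 ± 3.90% on the other chromosomes (mean ± SD, n = 9), and MS to 31.5%, against 33.4 ± 2.51%. The LS share was 21.0% on chromosome 9 and 20.8 ± 4.07% on the others, and the ESMS share 9.32% and 8.67 ± 1.23%. MSLS was the class in which chromosome 9 stood furthest from the mean, with 11.4%, against 9.43 ± 1.49% on the others, of which chromosome 4 was higher, at 11.9%.

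None of these shares lay outside the range of the other chromosomes. A timing index, the mean over classified sequence with ES counted as 1, ESMS as 2, MS as 3, MSLS as 4 and LS as 5, was 2.90 on chromosome 9 and 2.87 ± 0.170 on the others. Each whole-chromosome measure was tested by an exact two-sided permutation that gave the place of chromosome 9 to each of the 10 chromosomes in turn. The smallest p this design allows is 0.1, so no difference could pass 0.05, and the p is a statement of rank. Over 35 measures the lowest exact permutation p was 0.2, and the lowest after Benjamini-Hochberg adjustment was 1.

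**Figure D1:**
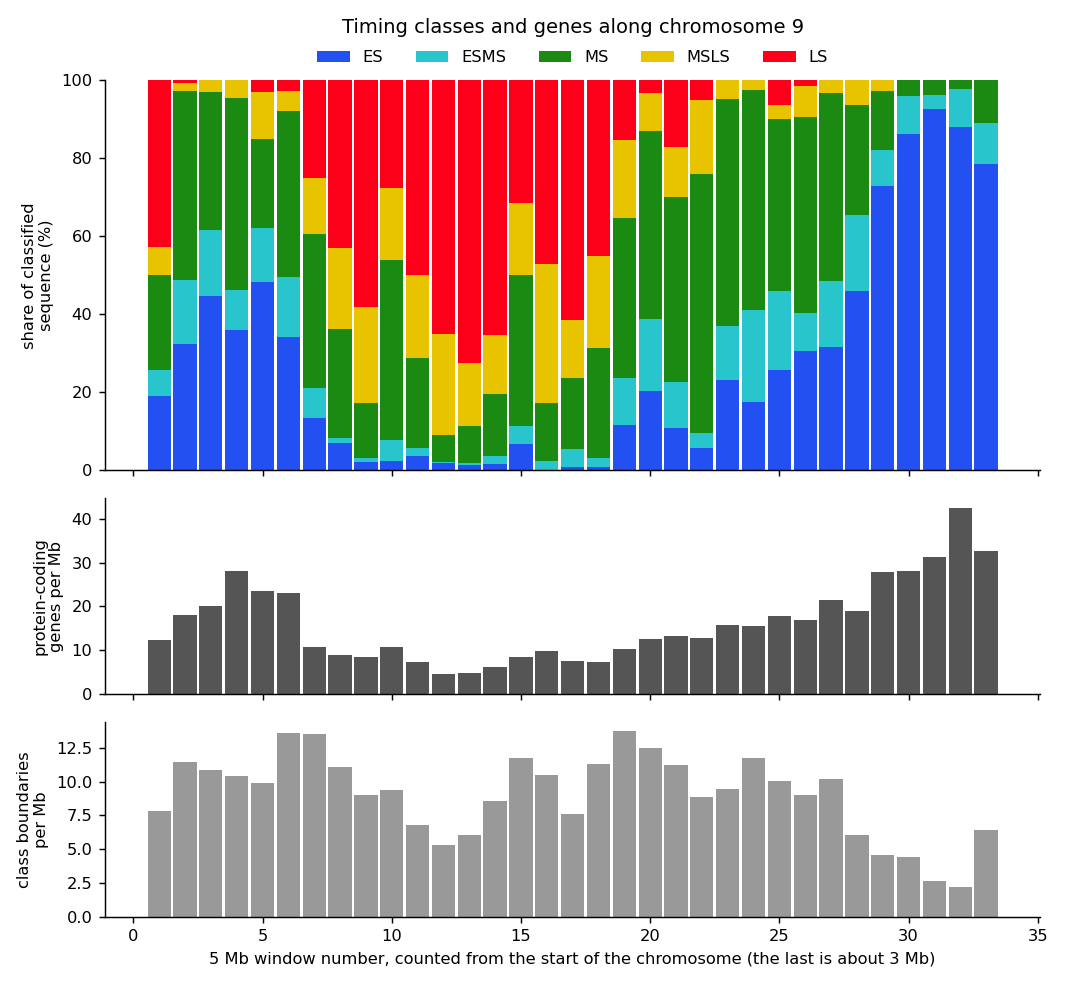
Timing classes, genes and class boundaries in the 33 windows of chromosome 9, counted from its start, each of 5 Mb except the last. The stacked bars give the share (%) of classified sequence in each class, and the lower panels give protein-coding genes per Mb and boundaries between touching segments of different class per Mb. LS is the largest class in window 1 and in windows 8 to 18 apart from windows 10 and 15, and ES is above 70% in windows 29 to 33.

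In steps of 5 Mb, chromosome 9 ran from a late tip through an early to mid S part into a late interior. A mid S stretch and an early end followed. MS was the largest class in 15 of the 33 windows (45.5%), LS in 10 (30.3%) and ES in 8 (24.2%). On the other chromosomes these shares were 45.4%, 24.1% and 30.3% of 399 windows. The borders used below to describe 5 zones, at 5, 30, 90 and 135 Mb, were chosen after the window values had been seen, so the zones are descriptions and no test was made between them.

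The window from 0 to 5 Mb was later than any window up to 35 Mb that follows it. It had 19.0% ES, 24.3% MS and 42.7% LS, an index of 3.48 and 12.4 protein-coding genes per Mb. Almost all of its LS came from the first segment of chromosome 9, chr9:90001-1930000, which at 1.84 Mb was also the longest LS segment of the chromosome. It held 9 annotated genes, of which 3 were protein-coding, 3 were long noncoding RNAs and 3 were pseudogenes.

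Beyond that segment the map turned early within a short distance. MSLS over 20 kb and MS over 10 kb followed, then a gap of 30 kb without a class and MS over 40 kb, and the first ES segment of chromosome 9 covered 210 kb at chr9:2030001-2240000. In the first 2 Mb, LS made up 97.9% of classified sequence on chromosome 9, against 19.0 ± 32.2% on the others (n = 9), and ES made up 0%, against 42.6 ± 22.2%. Chromosome 6, at 100% LS, was the only one with more LS there. The first 2 Mb of chromosome 9 held 4 protein-coding genes, against 46.4 ± 24.7 on the others. The exact permutation p was 0.2 for LS and for ES, and 0.9 for both after adjustment over 48 comparisons of chromosome ends. The first and last 2 Mb and 5 Mb were chosen for comparison after the map had been seen.

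From 5 to 30 Mb chromosome 9 was early to mid S, with 39.1% ES, 39.6% MS and 1.30% LS and an index of 2.15. The ES share of the 5 windows was 32.5% at 5 to 10 Mb, 44.6% at 10 to 15 Mb, 35.9% at 15 to 20 Mb, 48.2% at 20 to 25 Mb and 34.2% at 25 to 30 Mb. No LS was present between 10 and 20 Mb. ES here came in 65 segments with a median of 120 kb, against 100 kb for all ES segments of chromosome 9. Class boundaries stood at 11.2 per Mb, the highest value of the 5 zones. Genes stood at 22.6 per Mb.

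The change to the late interior was spread over several windows. The index was 2.27 at 25 to 30 Mb, 3.30 at 30 to 35 Mb, 3.91 at 35 to 40 Mb and 4.36 at 40 to 45 Mb. ES was 13.6% at 30 to 35 Mb, 7.06% at 35 to 40 Mb and 2.2% at 40 to 45 Mb. LS was 25.1%, 42.9% and 58.2% in the same windows.

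From 30 to 90 Mb the chromosome was late, with 49.3% LS, 20.5% MSLS, 23.7% MS and 3.61% ES and an index of 4.09. MSLS was mostly in this interior, with 197 of its 289 segments, of 40 kb at the median. The interior also held 123 of the 154 LS segments of chromosome 9 (79.9%) and 28.54 Mb of its LS. The highest LS share of any window, 72.5%, was at 60 to 65 Mb, followed by 65.4% at 65 to 70 Mb, 65.0% at 55 to 60 Mb and 61.4% at 80 to 85 Mb. These 4 windows, 12.1% of the windows of chromosome 9, were those with more than 60% LS, against 10.3% of windows elsewhere.

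Besides the window at its lower edge, 30 to 35 Mb, 2 windows of this interior had MS as their largest class. At 45 to 50 Mb MS was 45.9% and LS 27.6%, and at 70 to 75 Mb MS was 38.9% and LS 31.4%. The lowest ES share, 0.251%, was at 75 to 80 Mb, where only 3.99 Mb of the window had a class and MSLS reached its highest share on the chromosome, 35.6%. ES at 80 to 85 Mb was 0.800%.

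ES was not absent from the late interior. It occurred there as 34 segments with a median of 60 kb and a longest of 140 kb, spaced by a median of 920 kb. Of these, 27 (79.4%) held the midpoint of at least 1 protein-coding gene, and the 34 together held 46 genes, or 21.8 per Mb. The 123 LS segments around them had a median of 160 kb, and 60 (48.8%) held a gene, 119 genes in all or 4.17 per Mb.

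The longest stretch of chromosome 9 without ES ran 6.36 Mb, chr9:77170001-83530000, and held 64 protein-coding genes. It was the shortest such stretch of the 10 chromosomes: the others reached 11.4 ± 3.18 Mb at their longest, from 7.98 Mb on chromosome 8 to 18.4 Mb on chromosome 2 (exact permutation p = 0.2, adjusted p = 1). Its first 910 kb had no class and held 22 of the 64 genes, and a further gap of 100 kb held 2. Within its classified sequence no ES was found. Its rank as the shortest rests on a single window, however. The ES segment before it covered 10 kb, the size of 1 window, and was the only ES at 75 to 80 Mb. Without that segment the stretch would start no later than 75 Mb and be longer than that of chromosome 8.

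From 90 to 135 Mb chromosome 9 was mainly mid S, with 51.1% MS, 19.6% ES and 5.49% LS, an index of 2.67 and 15.1 genes per Mb. ES was 20.4% at 95 to 100 Mb but lower again at 100 to 110 Mb, with 10.9% and 5.63% in the 2 windows. The window at 105 to 110 Mb had the highest MS share of the chromosome, 66.4%, against a highest value of 66.3% among the 399 windows of the others. It held the longest MS segment of chromosome 9, chr9:105950001-106900000, 950 kb with 14 genes. Past it, ES was 23.3% at 110 to 115 Mb, 17.6% at 115 to 120 Mb, 25.8% at 120 to 125 Mb, 30.5% at 125 to 130 Mb and 31.7% at 130 to 135 Mb.

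The last LS segment of chromosome 9 was an 80 kb segment ending at chr9:126590000. The 36.4 Mb from there to the end of the map, 22.3% of the chromosome, had no LS and held 1007 protein-coding genes. The longest stretch without LS on the others was 39.8 ± 16.3 Mb (n = 9), so that of chromosome 9 lay within 1 SD of their mean.

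From 135 Mb to its end at 163.005 Mb chromosome 9 was early, with 77.3% ES, 10.7% MS, 1.66% MSLS and no LS and an index of 1.37. The ES share was 46.0% at 135 to 140 Mb, 73% at 140 to 145 Mb, 86.3% at 145 to 150 Mb, 92.6% at 150 to 155 Mb, 88.0% at 155 to 160 Mb and 78.6% in the last 3 Mb. Over 70% ES was found in the last 5 windows and in no other window of the chromosome. This made 15.2% of the windows of chromosome 9, against 9.77% of those of the others.

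The early end held 21.45 Mb, or 50.2%, of all ES on chromosome 9 in 40 segments with a median of 275 kb. Boundaries were the sparsest here, at 4.26 per Mb, and genes the densest, at 30.1 per Mb. The window at 155 to 160 Mb had the most genes of any, 213, and the fewest boundaries, 2.24 per Mb. By contrast, the window at 55 to 60 Mb had the fewest genes, 22, and that at 90 to 95 Mb, where the late interior ends, had the most boundaries, 13.8 per Mb.

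All 9 ES segments of at least 1 Mb on chromosome 9 lay in this early end, the first of them starting at chr9:141840001. Together they covered 12.69 Mb, 29.7% of ES, and held 465 protein-coding genes, 34.2% of those in ES. The longest was chr9:153130001-155150000, 2.02 Mb with 77 genes, and the next was chr9:157510001-159480000, 1.97 Mb with 99 genes or 50.3 per Mb. The third in length was chr9:141840001-143610000, 1.77 Mb with 53 genes.

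The 2 ends of chromosome 9 thus differed. In the last 5 Mb, ES made up 86.4%, the highest of the 10 chromosomes, against 75.6 ± 8.46% on the others, which ranged up to 85.3% (n = 9, exact permutation p = 0.2, adjusted p = 0.9). In the first 5 Mb it made up 19.0%, against 55.2 ± 28.5% (exact permutation p = 0.4, adjusted p = 0.96). The map closed on an MS segment of 94.7 kb without a protein-coding gene, chr9:162910001-163004744.

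In every class the median segment length of chromosome 9 lay within the range of the other chromosomes. ES segments had a median of 100 kb on chromosome 9 (226 segments), against 109 ± 9.50 kb for the medians of the others (n = 9), and MS segments 90 kb (441 segments), against 86.7 ± 5.00 kb. ESMS segments, 417 on chromosome 9, had a median of 20 kb and MSLS segments, 289, a median of 40 kb on all 10 chromosomes. The 154 LS segments had a median of 150 kb, against 121 ± 17.6 kb on the others, and chromosome 6 was the only one with a longer median, 160 kb (exact permutation p = 0.2, adjusted p = 1). The order turned round in the mean, which was 217 kb for LS on chromosome 9 and 223 kb on the others.

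Of the 226 ES segments of chromosome 9, 9 (3.98%) reached 1 Mb, against 47 of 2953 (1.59%) on the other 9 chromosomes together. Of its 154 LS segments 2 (1.30%) did, against 49 of 1786 (2.74%). These shares were not tested. After the first segment, the longest LS segments were chr9:61220001-62430000, 1.21 Mb with 2 genes, and chr9:64320001-65270000, 950 kb with 6 genes. The LS segment with the most protein-coding genes was a different one, chr9:39750001-40610000, 860 kb with 10 genes. After the 950 kb MS segment, the longest MS segments were chr9:138080001-138660000, 580 kb with 8 genes, within the early end, and chr9:104760001-105290000, 530 kb with 10 genes.

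The mixed classes had shorter maxima. The longest MSLS segments were chr9:56000001-56330000, 330 kb without a gene, chr9:135410001-135730000, 320 kb with 1 gene, and chr9:56420001-56710000, 290 kb with 2 genes. The first and the last of these lay close together in the late interior, while the other was at the border of the early end. ESMS reached 190 kb at chr9:120000001-120190000 with 3 genes, 180 kb at chr9:155150001-155330000 directly after the longest ES segment, and 170 kb at chr9:93340001-93510000, the last 2 with 2 genes each.

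**Figure D2:**
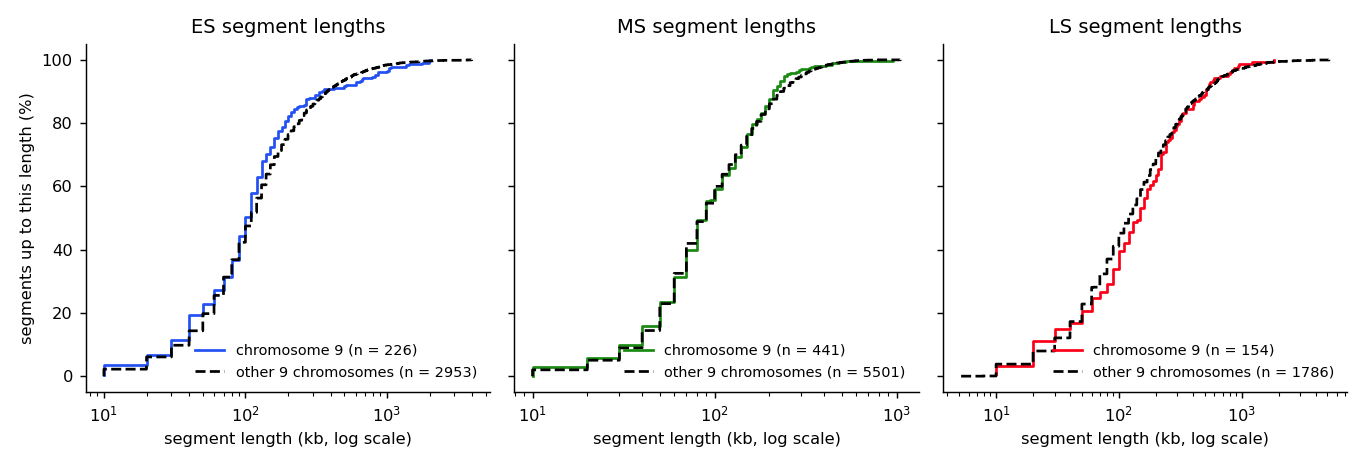
Cumulative share (%) of ES, MS and LS segments up to a given length (kb, log scale), for chromosome 9 (solid line) and the other 9 chromosomes together (dashed line). The MS curves nearly coincide, the ES curve of chromosome 9 lies to the left of the others from about 100 to 300 kb, and its LS curve lies to the right from about 50 to 200 kb.

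Timing on chromosome 9 changed step by step. Of 1446 boundaries between touching segments of the 5 classes, 1397 (96.6%) led to the next class in timing order, against 96.7 ± 0.408% on the others (n = 9). The commonest was ESMS to MS, with 466, followed by ES to ESMS, 360, MS to MSLS, 291, and MSLS to LS, 280. Direct boundaries between ES and MS numbered 46 and between MS and LS 3, and ES touched LS nowhere on chromosome 9. Boundaries stood at 9.06 per Mb, against 9.36 ± 0.340 per Mb on the others.

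Of the 183 ES segments with a touching neighbour on each side, 146 (79.8%) had ESMS on both. Of 134 such LS segments, 131 (97.8%) had MSLS on both. ES and LS segments were joined by 52 uninterrupted slopes, of which 30 ran from ES to LS with increasing coordinate and 22 from LS to ES. The slopes had a median length of 120 kb, against 110 ± 7.07 kb on the others, and ranged from 70 to 590 kb, the longest at chr9:104750001-105340000. When segments up to 100 kb apart also counted as neighbours, the median was 150 kb on chromosome 9 and 109 kb on the others, with the smallest possible exact permutation p, 0.1, against 0.5 for touching segments. ES segments followed each other at a median distance of 220 kb, against 203 ± 31.3 kb.

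The difference between the outer parts and the interior was measured as the share in the outer 20% at each end minus that in the middle 60%. For ES it was 43.0 percentage points on chromosome 9, against 33.0 ± 10.4 points on the others, with chromosome 2 higher, at 47.8 points (exact permutation p = 0.4, adjusted p = 1). The excess of chromosome 9, 9.96 points here, depended on the width of the ends: it was 2.04 points with the outer 10% (41.2 against 39.2 points) and 5.31 points with the outer 30%. For LS it was -27.1 points, against -21.5 ± 9.11 points. The middle 60% of chromosome 9 had the lowest ES share of the 10 chromosomes, 9.52%, against 14.6 ± 3.38% on the others, though chromosome 2 was close to it at 9.61%. The same middle part had the highest MSLS share, 16.2%, against 12.8 ± 1.40% on the others and at most 14.6%. These interior values were looked at after the map had been seen. The exact permutation p was 0.2 for ES and 0.1, the smallest possible, for MSLS, with an adjusted p of 0.9 for both over the 48 comparisons.

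The outer parts were unequal as well. The first 20% of chromosome 9 had 33.9% ES and the last 20% had 71.1%, against 34.6 ± 16.8% and 60.3 ± 11.4% on the others. LS was 9.48% in the first 20% and 0% in the last, against 12 ± 13.7% and 3.85 ± 4.18%. Chromosome 9 was the only one of the 10 without any LS in its last 20%. Chromosomes 3 and 10 came very close to this, with 0.0165% and 0.0335% LS there.

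**Figure D3:**
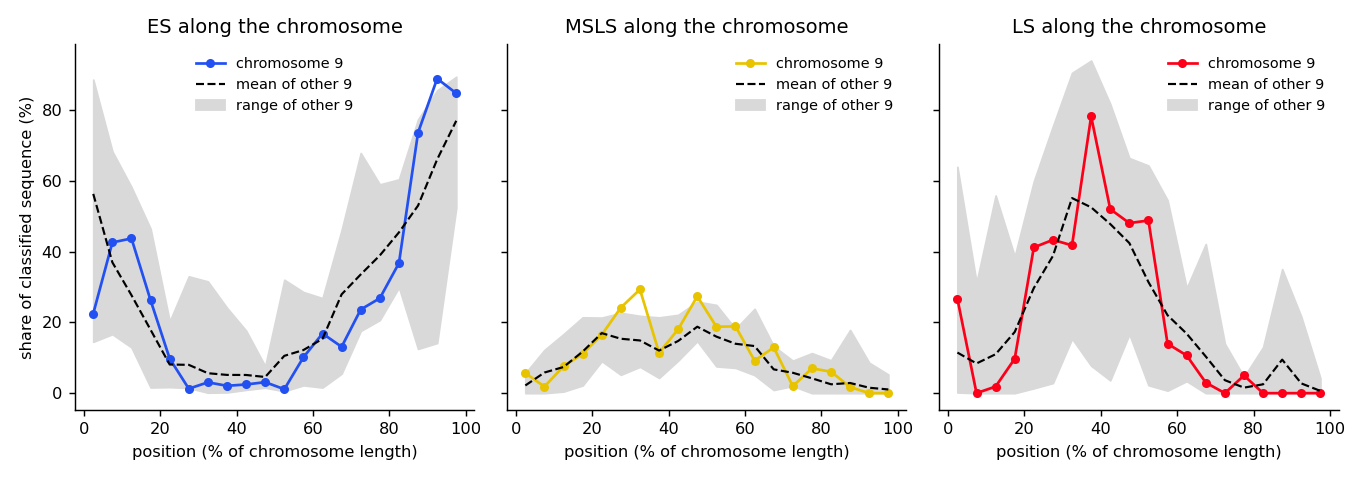
Share (%) of classified sequence in ES, MSLS and LS in 20 bins of 5% of chromosome length, for chromosome 9 (points and line), the mean of the other 9 chromosomes (dashed) and their range (grey). Chromosome 9 runs above the grey range for MSLS in 5 bins, for ES at 90 to 95% of the length and for LS at 75 to 80%. It runs below the range for ES at 25 to 30% and for MSLS at 70 to 75%.

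When position was scaled to chromosome length in 20 bins of 5%, chromosome 9 mostly lay within the range of the others. For ES it was outside in 2 bins, 10% of its 20, against a background of 20.0% over all bins of all chromosomes. One was above, at 90 to 95% of the length, with 88.9% ES against at most 85.6%, and one below, at 25 to 30%, with 1.26% against at least 1.46%. For LS it was outside in 1 bin, against a background of 16.0%, at 75 to 80% of the length, with 5.00% against at most 4.59%. A background of 20.0% is set by the design, because every bin has a highest and a lowest of the 10 chromosomes. Only ties between chromosomes lower it.

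For ESMS and for MS chromosome 9 was outside in 3 bins each (15%), with backgrounds of 20.0% and 20.0%, and for the timing index in 1 bin, with a background of 20.0%. For MSLS it was outside in 6 bins (30%), 5 of them above, against a background of 17.5%. The 5 bins above the range were at 0 to 5%, 25 to 30%, 30 to 35%, 45 to 50% and 55 to 60% of the length. The widest margin was at 30 to 35%, where chromosome 9 had 29.3% MSLS, against 14.9 ± 5.20% and at most 21.8% on the others. In the other 4 bins it exceeded the highest of the others by little: at 0 to 5% it had 5.69% against at most 5.66%, and at 45 to 50% it had 27.4% against at most 25.9%. MS was above the range at 65 to 70%, with 62.0% against at most 57.5%, and below it in the last 2 bins, and ESMS was furthest above at 70 to 75%, with 24.0% against at most 15.9%. In 20 bins MSLS was thus the only class with a share above its background, but this did not hold for every number of bins. For MSLS the share outside was 20% in 10 bins, with a background of 18%, and 15% in 40 bins, with a background of 15.75%. For ES it was 20% in 40 bins, with a background of 19%, and for ESMS 22.5%, with a background of 19.5%.

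**Figure D4:**
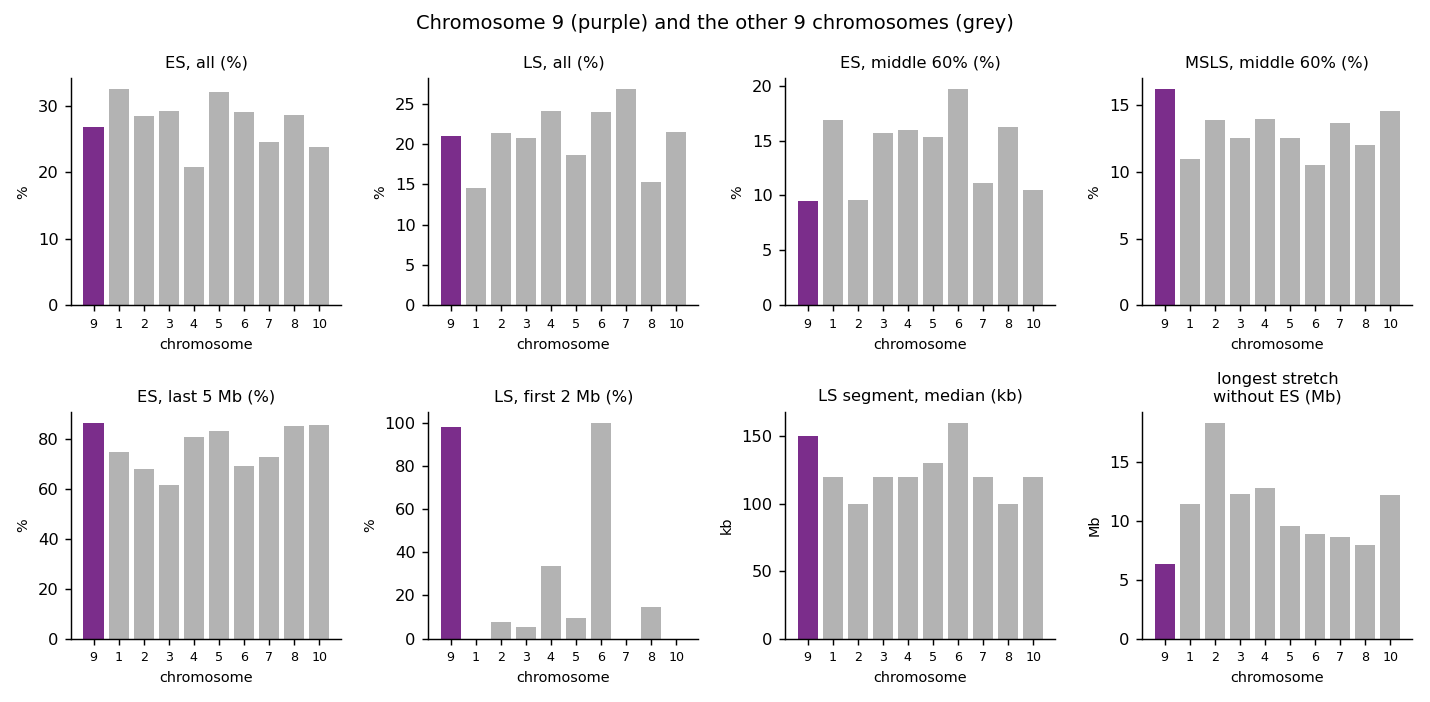
Whole-chromosome and regional measures for chromosome 9 (purple) and the other 9 chromosomes (grey), 1 bar per chromosome. Chromosome 9 is ordinary in ES and LS over its whole length, lowest in ES and highest in MSLS in the middle 60%, and highest in ES in the last 5 Mb. It is next to chromosome 6 in LS in the first 2 Mb and in the median LS length. The longest stretch without ES is lowest on chromosome 9 in Mb, but not as a share of chromosome length. The rank in Mb rests on an ES segment of 10 kb at the lower end of the stretch.

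Of the 2617 protein-coding genes annotated on chromosome 9, 2546 had one of the 5 classes at their midpoint, 70 fell in sequence without a class and 1 in a rare class. ES held 1359 of the classified genes (53.4%), ESMS 323, MS 591, MSLS 138 and LS 135 (5.30%). Genes per Mb decreased in timing order: ES had 31.8, ESMS 21.7, MS 11.8, MSLS 7.59 and LS 4.03. On the others ES held 31.2 ± 1.82 and LS 3.65 ± 0.616 genes per Mb (n = 9). The difference between ES and LS was 27.8 genes per Mb on chromosome 9 and 27.5 ± 1.88 on the others, with chromosome 9 sixth in rank (exact permutation p = 1). Genes had a median length of 3355 bp in ES and 2043 bp in LS on chromosome 9, against 3339 ± 66.8 and 1915 ± 265 bp for the medians of the others.

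Gene content followed timing from window to window. Over the 32 full windows of chromosome 9, which adjoin each other along 1 map, the Spearman correlation of gene density was 0.936 with the ES share, -0.912 with the LS share and -0.965 with the timing index. On the other chromosomes the last of these ranged from -0.964 to -0.892. With the number of boundaries per Mb the correlation of gene density was weaker, -0.117 as Spearman's rho and -0.400 as Pearson's r.

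Short ES segments often lacked a gene midpoint, while few longer ones did. Of 26 ES segments of up to 30 kb, 11 held a gene midpoint, against all 27 of those of 310 kb or more. In all, 21 of 226 ES segments (9.29%) were without a gene, the longest being chr9:97890001-98010000, 120 kb. Of the LS segments, 4 of 23 of up to 30 kb held a gene and 29 of 31 of 310 kb or more. Per Mb, however, short ES segments were not poor in genes. ES segments of up to 30 kb had 32.7 genes per Mb and those of 40 to 100 kb had 30.4. The density was 27.2 per Mb at 110 to 300 kb and 34.9 at 310 kb or more. In LS it was 8.51 per Mb in segments of up to 30 kb and 4.21 in those of 310 kb or more.

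Among RNA genes and pseudogenes the share in ES varied by type and was not tested. Of the classified transfer RNA genes 28 of 54 (51.9%) were in ES on chromosome 9, against 59.8% on the others. Long noncoding RNA genes were in ES in 32.3% of cases, against 37.3%, and pseudogenes in 33.0%, against 40%. The highest share on chromosome 9 was that of small nuclear RNA genes, 15 of 19 (78.9%), against 60.3%. Small nucleolar RNA genes were in ES in 22 of 49 cases (44.9%), against 55.6%.

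Of 24 classical maize gene symbols searched for, chosen with earlier results of these data known, 12 were found on chromosome 9. In ES were 7 of them, in ESMS 1, in MS 3 and in LS 1. Of all classified protein-coding genes of chromosome 9, 53.4% were in ES, 12.7% in ESMS, 23.2% in MS and 5.30% in LS. The list was not tested against these shares. Between 5 and 30 Mb, c1, a MYB regulator of anthocyanin synthesis, lay in a 150 kb ES segment, chr9:10970001-11120000. The midpoint of the gene was 2.23 kb from the border with ESMS. The genes sh1, a sucrose synthase, and bz1, a glucosyltransferase of the anthocyanin pathway, shared a single ES segment of 780 kb, chr9:12360001-13140000, with 29 protein-coding genes and MS on both sides. Theirs was the longest ES segment of the classical genes between 5 and 30 Mb.

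The gene wx1, the granule-bound starch synthase of the waxy locus, lay in an ES segment of 10 kb, the size of 1 window, at chr9:25120001-25130000. ESMS came before it and a gap of 40 kb after it, and the gene ran into the gap at its higher coordinate, so its class rests on a single window. Farther along the same part of the chromosome, d3, a cytochrome P450 of gibberellin synthesis, was in a 140 kb MS segment, chr9:28700001-28840000. The segment held no other protein-coding gene.

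In the late interior were rf2, an aldehyde dehydrogenase known as a restorer of male fertility, and a gene listed under the synonym pep1, a name used for phosphoenolpyruvate carboxylase. Both were in MS, in segments of 160 kb (chr9:36330001-36490000, between MSLS and LS) and 190 kb (chr9:70750001-70940000, between MSLS on both sides). The one LS gene of the list, gl15, an AP2-type regulator of juvenile leaf identity, lay in the mid S stretch, as the only gene of a 160 kb LS segment at chr9:100920001-101080000. MSLS of 80 kb and 50 kb flanked it, with MS beyond on each side.

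Toward the early end, sus1, a further sucrose synthase, was in a 130 kb ES segment, chr9:127780001-127910000, and bk2, a COBRA-like gene of stalk strength, in a 50 kb ESMS segment between MS, chr9:128900001-128950000. The carotenoid cleavage gene wc1 had its midpoint 983 kb inside the 1.97 Mb ES segment described above. The homeobox gene rld1, which acts in leaf polarity, was in an ES segment of 820 kb with 33 genes, chr9:160610001-161430000. The sucrose synthase genes sh1 and sus1 were thus both in ES, though in segments of very different length.

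A total of 82 genes of chromosome 9 had a symbol of their own in the gene table: 13 protein-coding, 8 microRNA and 61 transfer RNA genes. Of the protein-coding ones ES held 5, ESMS and MS 2 each, and MSLS and LS 1 each, and 2, sfp5 and sbp4, had no class. Among all classified protein-coding genes of the chromosome, ES held 53.4%. The neighbouring 12-oxo-phytodienoic acid reductase genes opr2 and opr1 lay on either side of a border: opr2 in a 180 kb ES segment (chr9:8390001-8570000) and opr1 in the 50 kb ESMS segment that follows it (chr9:8570001-8620000). Of the jasmonate pathway were aos1, an allene oxide synthase, in a 600 kb ES segment (chr9:151260001-151860000), and aoc2, an allene oxide cyclase, in a 60 kb ESMS segment. The midpoint of aoc2 was 0.835 kb from the edge of that segment.

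Other protein-coding genes in ES were CCOAOMT2, a caffeoyl-CoA methyltransferase of lignin synthesis, in a 110 kb segment with 7 genes, and MURE, in 180 kb. CNR6, of the cell number regulator family, was the last ES gene with a symbol, in a 680 kb segment with 25 genes at chr9:161660001-162340000. MS held dzs10, a zein storage protein gene, in an 80 kb segment, and TENA2, in 90 kb. PHS1 was in MSLS of 250 kb, chr9:54860001-55110000, next to LS. EXPB1, a beta-expansin, was the one in LS, in a 320 kb segment with 3 genes, chr9:123170001-123490000, flanked by MSLS on both sides.

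Of the 8 microRNA genes, MIR396b, MIR396h, MIR169r and MIR528b were in ES, MIR399j, MIR167i and MIR171d in MS, and MIR171n in LS. Plant microRNAs base-pair with messenger RNAs of regulators, those of the miR396 family with growth-regulating factors and those of the miR171 family with GRAS factors. MIR396b and MIR396h shared a 330 kb ES segment, chr9:16890001-17220000. The 2 genes of the MIR171 family thus differed in class: MIR171d lay in a 160 kb MS segment between ESMS at chr9:131730001-131890000, and MIR171n in a 180 kb LS segment without a protein-coding gene at chr9:101820001-102000000. MIR528b was deep in the early end, 364 kb inside a 1.04 Mb ES segment with 50 genes.

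Of the 61 transfer RNA genes, ES held 28, MS 18, ESMS 5 and MSLS 2, while 7 had no class. The single one in LS, TRNAY-GUA, lay in a 240 kb segment at chr9:64070001-64310000.

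Sequence without a class made up 2.11% of chromosome 9, 3.44 Mb in 79 gaps with a median of 20 kb, against 1.71 ± 0.609% on the others. The longest, chr9:77170001-78080000, covered 910 kb, against at most 700 kb elsewhere. It held 22 protein-coding genes, 3 pseudogenes and 7 transfer RNA genes, which were all 7 of the transfer RNA genes without a class on chromosome 9. These were 2 TRNAW-CCA genes, TRNAP-UGG, TRNAE-UUC, TRNAD-GUC, TRNAF-GAA and TRNAC-GCA. An ES segment bordered the gap at its lower coordinate and an LS segment at its higher one.

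The gaps of chromosome 9 held 70 protein-coding genes, or 20.3 per Mb, against 14.0 per Mb in the gaps of the others. Without the longest gap the remaining 78 covered 2.53 Mb and held 48 genes, or 19.0 per Mb. The next in length were chr9:47980001-48190000, 210 kb with 5 genes, and chr9:60490001-60640000, 150 kb with none. Whether reads could be placed in these stretches was not analysed here.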

How the data were processed

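Repli-seq libraries of early S, mid S, late S and G1 nuclei were sequenced with paired-end reads of 150 bp, per the labels. The submitters' processing notes list Trimmomatic 0.39, Bowtie2 2.5.1 and SAMtools 1.9. The deposited file holds a class per segment, called in 10 kb windows per the file headers. The segmentation tool, its thresholds, the genome build and how the authors joined replicates are not stated in the sources at hand. The file has no column of counts, so depth and its precision are unknown.

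Shares, segment lengths, boundaries, gaps and windows were computed from the segments. ESLS and ESMSLS segments were left out of shares. Genes came from RefSeq (Zm-B73-REFERENCE-NAM-5.0), which gives no strand or exons here. Whether gene and segment coordinates match was tested by shifting the genes by up to 500 kb: the correlation of genes with ES peaked at 0 kb over chromosome 9 (r = 0.22) and within 20 kb in 7 of 8 parts of 20 Mb. Tests were exact permutations over chromosomes with Benjamini-Hochberg adjustment, tested on simulated data. Software was scipy 1.17.1, pandas 2.3.3, numpy 2.4.6 and matplotlib 3.10.9 under Python 3.11.15.

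The members, gene lists and tests were chosen with earlier results of these data known. Named were the 3 longest segments of each class, the first and last segment, the 3 longest gaps, extreme windows, the classical symbols found, and genes with a symbol of their own that were first or last in a class. The other genes with a symbol, the gene-rich LS segment, the gene-free ES segment and the neighbours of named genes were added after their values were seen. Promoter and other sequence was not analysed here.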

Additional observations from a re-analysis of the deposited data

Results flagged for a closer look

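Besides the 5 classes used in the report, the segmentation carries 3 segments of chromosome 9 in classes that span non-neighbouring stages, 70 kb in all, against 6 segments and 110 kb on the other 9 chromosomes. No comparison uses them. A 40 kb ESLS segment at chr9:7210001-7250000, with 1 gene, was followed directly by a 10 kb ESMSLS segment at chr9:7250001-7260000. A 20 kb ESMSLS segment lay at chr9:85810001-85830000, between MSLS segments. They were not examined further.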

How the results depend on the processing

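For 16 differences between chromosome 9 and the mean of the others, 184 of 200 alternative values kept their direction and 16 reversed. Of the 200, 144 only left out 1 of the other chromosomes, and 6 of these reversed. The other 10 reversals were among the fewer changes of processing. Joining mixed classes to the later stage could not alter the ES share, nor joining them to the earlier stage the LS share. The lowest exact permutation p among the 200 values was 0.1, and none could pass 0.05. Differences are chromosome 9 minus the others. With mixed classes joined to the earlier stage the MS share differed by 0.0683 points, and without the first segment of chromosome 9, an alternative chosen after seeing the data, the LS share differed by -0.733 points. In place of medians, mean lengths differed by 5.09 kb for ES, -3.66 kb for MS and -6.09 kb for LS, and length-weighted medians by 50 kb, -8.89 kb and -67.8 kb. With the outer 10%, the LS contrast of ends and middle differed by 0.704 points, and with all gene types the ES minus LS density by -0.0139 genes per Mb. The excess in the ES contrast of ends and middle was 2.04 points with the outer 10%, and that in the median slope 41.1 kb with neighbours up to 100 kb apart. For 8 results without a direction, 10 of 18 alternative values stayed close and 8 moved: in windows of 2 Mb the highest LS share was 97.9%, and the share of bins outside the range was 0% for ESMS, 0% for LS and 10% for the index in 10 bins, and 20% for ES, 15% for MSLS, 2.5% for LS and 15% for the index in 40 bins. Leaving out each other chromosome in turn gave -0.593 to 0.945 points for the LS share and -0.0731 to 0.597 genes per Mb for the density, and reversed no other result. No paired analysis was possible because the segmentation has no columns for single libraries. Promoter composition was not run, as no promoter sequence was at hand. Depth, replicate error and the authors' thresholds could not be examined, so short segments, above all those of 1 window, are the least certain.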
